A study of Rattus norvegicus with 100 samples.

Results

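Late effects of the estrogen ethinylestradiol (EE) in the rat uterus were set against those in the rat pituitary gland, as EE minus control in uterus minus EE minus control in pituitary at 24, 48 and 72 h. The arrays were chosen by tissue, treatment and time in their titles, and they were 48 of 100 arrays in all, 30 of uterus and 18 of pituitary. At each of the 3 times the groups were uterus with EE (5 arrays), control uterus (5), pituitary with EE (3) and control pituitary (3). All came from immature female rats of an OECD uterotrophic assay, which reads estrogen action as growth of the juvenile uterus. The labels give no dose, route, schedule, vehicle, strain or age, and do not say whether each array was a separate animal, so p-values measure the spread between arrays, which may be partly technical. Whole organs were read, so fewer cells of a type and less RNA per cell cannot be told apart in any value below.

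EE is a synthetic estrogen that acts through the same nuclear receptors as estradiol. In the immature uterus, estrogen drives fluid uptake first and later growth and division of the epithelium, stroma and muscle. In the pituitary, estrogen feeds back on the gonadotrophs, which make the hormones LH and FSH, and acts on the lactotrophs, which make prolactin.

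Affymetrix RAE230A arrays gave 1 intensity per probe set, and 1 probe set per gene was used for 10411 genes. Intensities were changed to log2(value + 30.4), where 30.4 was the 10th percentile of all values, and blank cells were left out. The EE effect of a gene is the mean log2 of EE arrays minus that of control arrays, so a fold change is understated for dim genes. The late mean is the average of the effects at 24, 48 and 72 h, and the tissue difference is the effect in uterus minus that in pituitary. Tests were limma's moderated tests, adjusted over all genes tested by the Benjamini-Hochberg method, with 0.05 as the threshold for a call. Precision differed between the organs, with a median standard error (SE) of the late mean of 0.048 in uterus and 0.059 in pituitary.

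Of the probe sets, 9338 to 10557 had a value on an array of uterus and 9473 to 10135 on one of pituitary, and array medians lay between 94.6 and 109. Each late array correlated at a mean r of at least 0.975 with the others of its group. The tissue labels matched defining markers: Prl, Gh1 and Cga, hormone genes of the pituitary, were blank on all 30 late uterus arrays and had values on all 18 pituitary arrays, while Acta2, smooth muscle actin, ran from 1714 to 3057 in uterus and from 47.4 to 133 in pituitary. The log2 gap between the 3′ and 5′ probe sets of Actb, a sign of RNA integrity, was lower with EE in uterus, for example 0.32 ± 0.14 on EE arrays and 0.67 ± 0.27 on control arrays at 72 h (SD, n = 5 each). In pituitary it averaged 1.47 ± 0.11 on EE arrays and 1.51 ± 0.090 on control arrays at 72 h (SD, n = 3 each). The part of this gap in the uterine results was not tested.

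The question was which genes EE moved alike, in opposite directions or in a single organ. The tissue difference passed for 2528 of 6307 genes tested at 24 h (40.1%), 2277 of 6249 at 48 h (36.4%) and 2314 of 5990 at 72 h (38.6%). For the late mean 1423 of 5852 genes had a more positive effect in uterus (24.3%) and 2062 a more negative one (35.2%). The uterus carried most of these differences. Its late mean effect passed as a rise in 2078 of 6674 genes (31.1%) and as a fall in 2907 (43.6%), while in pituitary it rose in 198 of 6509 genes (3.04%) and fell in 115 (1.77%). Without adjustment 1019 pituitary genes had p under 0.05. Single times gave 4196, 4020 and 4104 genes in uterus at 24, 48 and 72 h, and 6, 22 and 181 in pituitary, although the growth of that count was not itself tested. Centring each array on its median changed the split of directions: 40.8% of the differences that passed were more positive in uterus as deposited, and 56.8% after centring. In uterus 41.7% of the genes that passed rose as deposited and 55.3% after centring, so the balance of rises and falls in uterus depends on the scale of the arrays.

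Of the 5852 genes tested in both organs, 107 rose in both, 34 fell in both, 31 rose in uterus and fell in pituitary, and 42 fell in uterus and rose in pituitary. A gene counted as changed in a single organ only where it passed there, the tissue difference passed, and the 95% interval of the effect in the other organ lay within a 1.5-fold change. This held for 1274 rises and 1925 falls in uterus, and for 30 rises and 10 falls in pituitary. For 1404 genes the effect passed in neither organ, whether or not the difference did. Another 995 fitted no class, mostly because the uterine effect passed and the difference did not (977 genes). The 107 shared rises were 57.8% of the 185 pituitary rises and 5.90% of the uterine rises among genes tested in both, where 30.998% of all genes rose in uterus. The 34 shared falls were 41.5% of the 82 pituitary falls and 1.32% of the uterine falls, where 44.1% of all genes fell in uterus. In uterus 22.7% of the pituitary rises fell and 37.8% of the pituitary falls rose, beside 44.1% and 30.998% of all genes. Among shared rises the difference passed for 68 genes, of which 61 moved more in uterus and 7 more in pituitary, and it did not pass for 39. The 73 opposite genes came to 47 without the control pituitary array numbered 73 at 72 h and to 48 without the EE pituitary array numbered 69 at 48 h. The 40 changed in pituitary alone came to 25 without the control pituitary array numbered 76 at 72 h and to 26 without that same EE array.

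**Figure D1:**
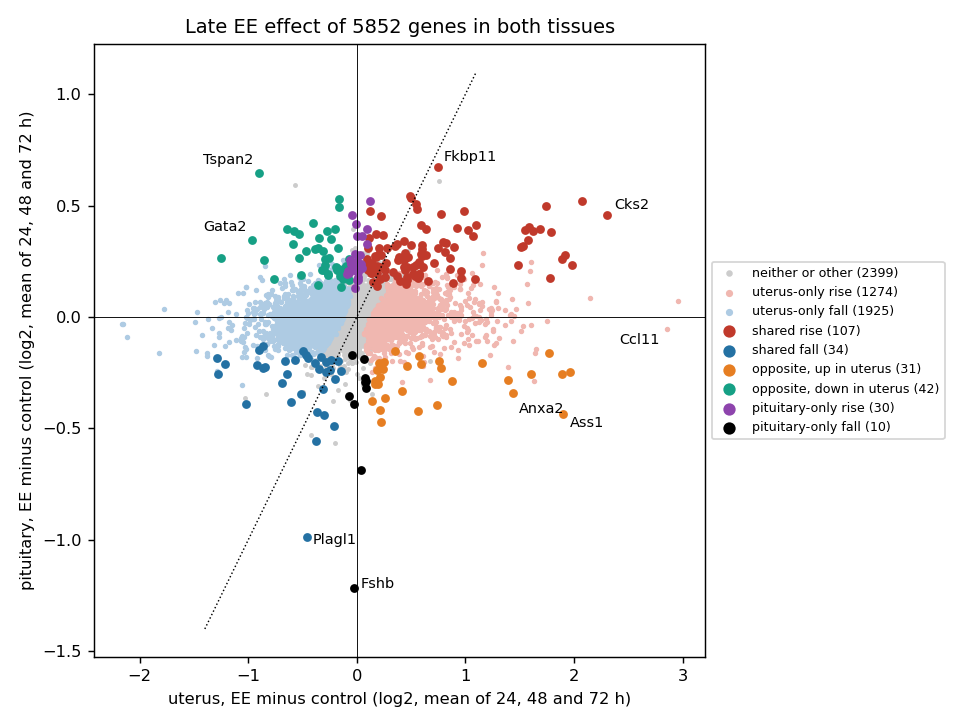
Late mean EE effect (log2) in uterus on the x axis and in pituitary on the y axis for the 5852 genes tested in both organs, coloured by class, with a dotted line where both are equal. The uterine effects span a wider range than the pituitary ones, and genes that passed in both organs lie in every quadrant.

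Of the classical targets of estrogen, Pgr, the progesterone receptor, rose in both organs. At 72 h Pgr read 173, 185, 229, 174 and 169 on the EE arrays of uterus, against 151, 81.7, 131, 169 and 101 on its controls, and 52.7, 59.6 and 71.7 on the EE arrays of pituitary, against 30.3, 36.6 and 28.6 on its controls. At 72 h the lowest EE array of uterus fell just short of the highest control, and the pituitary groups did not overlap. The late mean effect of Pgr was 0.35 ± 0.065 (adjusted p = 2.8e-06) in uterus and 0.32 ± 0.055 (adjusted p = 5.7e-04) in pituitary (log2 ± SE), a difference of 0.03 ± 0.10 (adjusted p = 0.81) with a 95% interval from -0.16 to 0.22. Its pituitary level lay near the offset, which shrinks the fold there. S100g, a calcium-binding protein gene strongly induced by estrogen in rat uterus, read 1882, 1891, 2018, 1723 and 2467 on EE arrays of uterus at 72 h, against 86.2, 88.7, 90.4, 59.1 and 74.3 on controls, a late mean effect of 3.73 ± 0.08 (adjusted p = 9.7e-47). In pituitary S100g had values on 9 of 9 late EE arrays and on 0 of 9 control arrays, so no fold or test was possible. These read 43.7, 40.7 and 89.4 at 24 h, 201, 419 and 158 at 48 h and 474, 464 and 486 at 72 h. Esr1, the estrogen receptor alpha, rose in uterus by 0.26 ± 0.065 (adjusted p = 2.7e-04) and had too few pituitary values for a late mean test. Igf1 and Vegfa passed in uterus and not in pituitary, and C3 could not be tested in either organ. Igf1, a growth factor, had a uterine effect of 1.16 ± 0.053 (adjusted p = 3.9e-29), against 0.29 ± 0.13 (adjusted p = 0.25) in pituitary, and the difference passed at 0.87. C3, a complement gene, read 497, 2456 and 4871 (lowest, median and highest of the EE arrays of uterus), against 26.8, 30.3 and 38.9 on the control arrays with a value, but was blank on all but 2 of the 18 pituitary arrays. Vegfa, which drives vessel growth, had -1.27 ± 0.071 (adjusted p = 1.0e-24) in uterus, against -0.0057 ± 0.052 (adjusted p = 0.98) in pituitary. Of the 20 uterine estrogen-responsive genes on the arrays, 12 rose and 5 fell of 18 tested in uterus, and 1 rose and 1 fell of 8 in pituitary. Their median effect was 0.50 in uterus and -0.0016 in pituitary (0.006 after quantile normalization), beside -0.052 and -0.0032 over all genes tested in the same 2 organs. Rises were 31.1% and falls 43.6% of all genes tested in uterus, and 3.04% and 1.77% in pituitary.

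Among genes brighter than the median in both organs, the shared rises with the largest effect in the weaker organ were Fkbp11, Pclaf, Nucb2, Tmem248, Cdh1 and Ssr2. Fkbp11 and Ssr2 act in the endoplasmic reticulum, where Fkbp11 assists protein folding and Ssr2 is a subunit of the complex that helps secreted proteins across its membrane. In the triplets that follow, the values are the lowest, the median and the highest late intensity of up to 15 arrays in uterus and 9 in pituitary, counting those with a value. Fkbp11 read 158, 212 and 284 on EE arrays and 62.2, 116 and 164 on control arrays of uterus, and 139, 226 and 351 on EE arrays and 105, 137 and 159 on control arrays of pituitary. Pooled over the 3 times, EE and control ranges of Fkbp11 overlapped in both organs, while at 48 and 72 h taken singly the pituitary groups did not. The late mean effect of Fkbp11 was 0.75 ± 0.087 (adjusted p = 1.3e-11) in uterus and 0.67 ± 0.086 (adjusted p = 1.6e-05) in pituitary, and the difference of 0.08 ± 0.14 (adjusted p = 0.64) did not pass. Ssr2 read 480.3, 614 and 695 on EE arrays and 329, 418 and 491 on control arrays of uterus, and 422, 564 and 715 on EE arrays and 331, 382 and 444 on control arrays of pituitary. Its effects were 0.55 ± 0.042 (adjusted p = 7.9e-19) in uterus and 0.49 ± 0.049 (adjusted p = 3.1e-07) in pituitary, with a difference of 0.068 ± 0.066 (adjusted p = 0.38), which passed after centring at 0.16 (adjusted p = 0.027). Nucb2, which encodes the calcium-binding protein nucleobindin 2, was brighter in pituitary than in uterus and rose by 0.55 ± 0.055 (adjusted p = 8.7e-14) in uterus and by 0.51 ± 0.072 (adjusted p = 6.0e-05) in pituitary. Cdh1, the adhesion protein E-cadherin of epithelium, rose by 0.49 ± 0.065 (adjusted p = 7.7e-10) in uterus and by 0.54 ± 0.11 (adjusted p = 0.0021) in pituitary. Tmem248, a membrane protein gene, rose by 0.50 ± 0.048 (adjusted p = 1.1e-14) in uterus and by 0.53 ± 0.08 (adjusted p = 1.3e-04) in pituitary, where its other probe set gave -0.23. For all 3 the difference did not pass, at 0.73, 0.7 and 0.77 after adjustment for Nucb2, Cdh1 and Tmem248.

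Several genes of entry into the secretory route rose in both organs. A list of 50 genes for membrane translocation, signal peptide cleavage, glycosylation and early transport was drawn up after the shared rises had been seen, so its counts are a description. In uterus 40 of 48 tested rose and 3 fell, and in pituitary 15 of 48 rose and 0 fell. Over all genes tested, 31.1% rose in uterus and 3.04% in pituitary. Ssr4, another subunit of the translocon-associated complex, read 788, 931 and 1099 on EE arrays and 391, 448 and 537 on control arrays of uterus, and 949.6, 1078 and 1277 on EE arrays and 716, 776 and 847 on control arrays of pituitary, with no overlap of EE and control in either organ. Its effects were 0.98 ± 0.044 (adjusted p = 1.3e-29) in uterus and 0.47 ± 0.048 (adjusted p = 3.3e-07) in pituitary, a difference of 0.51 ± 0.068 (adjusted p = 7.5e-10). By the late mean, the chaperones that fold proteins in the endoplasmic reticulum moved mainly in uterus. Of that list 18 rose and 5 fell of 24 in uterus, and 5 rose and 0 fell of 26 in pituitary. Late mean medians were 0.45 in uterus and 0.062 in pituitary. At 72 h alone the medians were 0.32 in uterus and 0.20 in pituitary. The difference at 72 h passed as more positive in uterus for 4 of 24 and as more negative for 3. Over all genes these were 869 and 1445 of 5990. After quantile normalization the list had 2 and 5, beside 762 and 1423 of 5990 over all genes. Sdf2l1, a cofactor of the chaperone Hspa5, rose by 1.12 in uterus with 0.061 ± 0.11 (adjusted p = 0.86) in pituitary, and Hspa5 itself by 0.37 in uterus with -0.13 ± 0.059 (adjusted p = 0.26) in pituitary. Dnajc3, a co-chaperone, rose in both, by 0.79 in uterus and 0.33 in pituitary, and the difference passed (adjusted p = 1.7e-07). The endoplasmic reticulum stress element, read as CCAAT and CCACG with 9 bases of any kind between them, on either strand and overlapping the CCAAT box, was found in 7 of the 19 list promoters (36.8%) in RefSeq's table of the GRCr8 build, which gives 250 bases before and 50 after each start, against 0.076% of all 27457 promoters in that table. Of promoters of genes tested for the late mean difference, 0.222% held it. The promoters of Canx and Xbp1 hold it too. In uterus Canx had -0.32 by the probe set kept and 0.57 and 0.27 by its others, and Xbp1 did not pass at -0.068 (adjusted p = 0.17). Promoters of Hspa5 (chr3:38452766-38453065, plus strand) and Dnajc3 (chr15:102432417-102432716, plus strand) are shown because the genes share the element and differ in their pituitary effect, with the element in capitals.
Hspa5: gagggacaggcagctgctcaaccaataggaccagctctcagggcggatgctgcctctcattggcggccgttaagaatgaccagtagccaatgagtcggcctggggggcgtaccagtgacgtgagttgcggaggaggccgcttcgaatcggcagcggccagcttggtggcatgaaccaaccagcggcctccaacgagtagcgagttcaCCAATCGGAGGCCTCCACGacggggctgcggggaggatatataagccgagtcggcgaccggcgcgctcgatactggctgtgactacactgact
Dnajc3: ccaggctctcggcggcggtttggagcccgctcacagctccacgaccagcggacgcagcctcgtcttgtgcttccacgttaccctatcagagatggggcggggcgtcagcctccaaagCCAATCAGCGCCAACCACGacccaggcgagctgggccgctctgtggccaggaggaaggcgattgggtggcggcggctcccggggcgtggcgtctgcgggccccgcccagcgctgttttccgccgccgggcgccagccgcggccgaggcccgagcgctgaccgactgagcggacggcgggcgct

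Genes of cell division rose in both organs and more in uterus. Of the mitosis list, 11 of 12 tested rose in uterus and 7 of 9 in pituitary, with 0 and 0 falls, and medians of 1.56 in uterus and 0.34 in pituitary. Of all genes tested, 31.1% rose in uterus and 3.04% in pituitary. The difference passed for all 9 of 9 tested in both, each larger in uterus. DNA replication genes rose for 18 of 18 in uterus and for 3 of 17 in pituitary. Top2a, the topoisomerase that untangles chromosomes before division, read 95.4, 220.4 and 572 on EE arrays and 28.3, 49.6 and 119 on control arrays of uterus, and 52.6, 99 and 117 on EE arrays and 36.4, 56.1 and 75.5 on control arrays of pituitary. Its EE effect was 1.74 ± 0.12 (adjusted p = 1.1e-20) in uterus and 0.50 ± 0.061 (adjusted p = 1.0e-05) in pituitary, with a difference of 1.25 ± 0.17 (adjusted p = 1.9e-09). In uterus Top2a was highest with EE at 24 h, at 572, 465, 454, 465 and 485, and read 137, 198, 165, 187 and 95.4 with EE at 72 h. Cks2, which binds the cell cycle kinase Cdk1, read 293, 429 and 688 on EE arrays and 23.9, 60.5 and 145 on control arrays of uterus, and 76.3, 159.8 and 205 on EE arrays and 41.7, 98.5 and 127 on control arrays of pituitary, so the uterine ranges did not overlap and the pituitary ones did. The effects of Cks2 were 2.31 ± 0.10 (adjusted p = 3.2e-29) in uterus and 0.46 ± 0.084 (adjusted p = 0.0011) in pituitary. Pclaf, a partner of the replication clamp, rose by 2.07 ± 0.10 (adjusted p = 3.7e-27) in uterus and by 0.52 ± 0.068 (adjusted p = 1.6e-05) in pituitary. Mki67, the marker of dividing cells, rose by 1.79 in uterus and by 0.38 in pituitary, and Tk1, which makes thymidine nucleotide, by 1.51 in uterus and 0.32 in pituitary. The hexamer TTTGAA, the core of the cell cycle homology region, was found on either strand in 6 of 7 promoters of the mitosis list genes with an entry (85.7%), against 18.1% of all promoters and 11.2% of those of genes tested for the late mean difference. Promoters of Top2a (chr10:84473044-84473343, minus strand) and Cks2 (chr17:13727470-13727769, minus strand) are shown because both rose in both organs and hold 1 copy, in capitals, 22 bases before the start in Top2a and 19 in Cks2.
Top2a: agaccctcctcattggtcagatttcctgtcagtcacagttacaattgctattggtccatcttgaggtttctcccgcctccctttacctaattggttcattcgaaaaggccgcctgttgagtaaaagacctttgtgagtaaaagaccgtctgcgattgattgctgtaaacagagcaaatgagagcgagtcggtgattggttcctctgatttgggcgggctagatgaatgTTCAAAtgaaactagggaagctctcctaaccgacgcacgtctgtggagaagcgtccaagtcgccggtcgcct
Cks2: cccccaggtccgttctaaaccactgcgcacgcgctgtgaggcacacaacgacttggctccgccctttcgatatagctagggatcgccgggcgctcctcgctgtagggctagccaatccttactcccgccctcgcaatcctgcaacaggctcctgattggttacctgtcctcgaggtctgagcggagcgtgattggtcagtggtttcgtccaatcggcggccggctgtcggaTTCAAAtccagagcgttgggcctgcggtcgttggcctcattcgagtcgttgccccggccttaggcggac

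**Figure D2:**
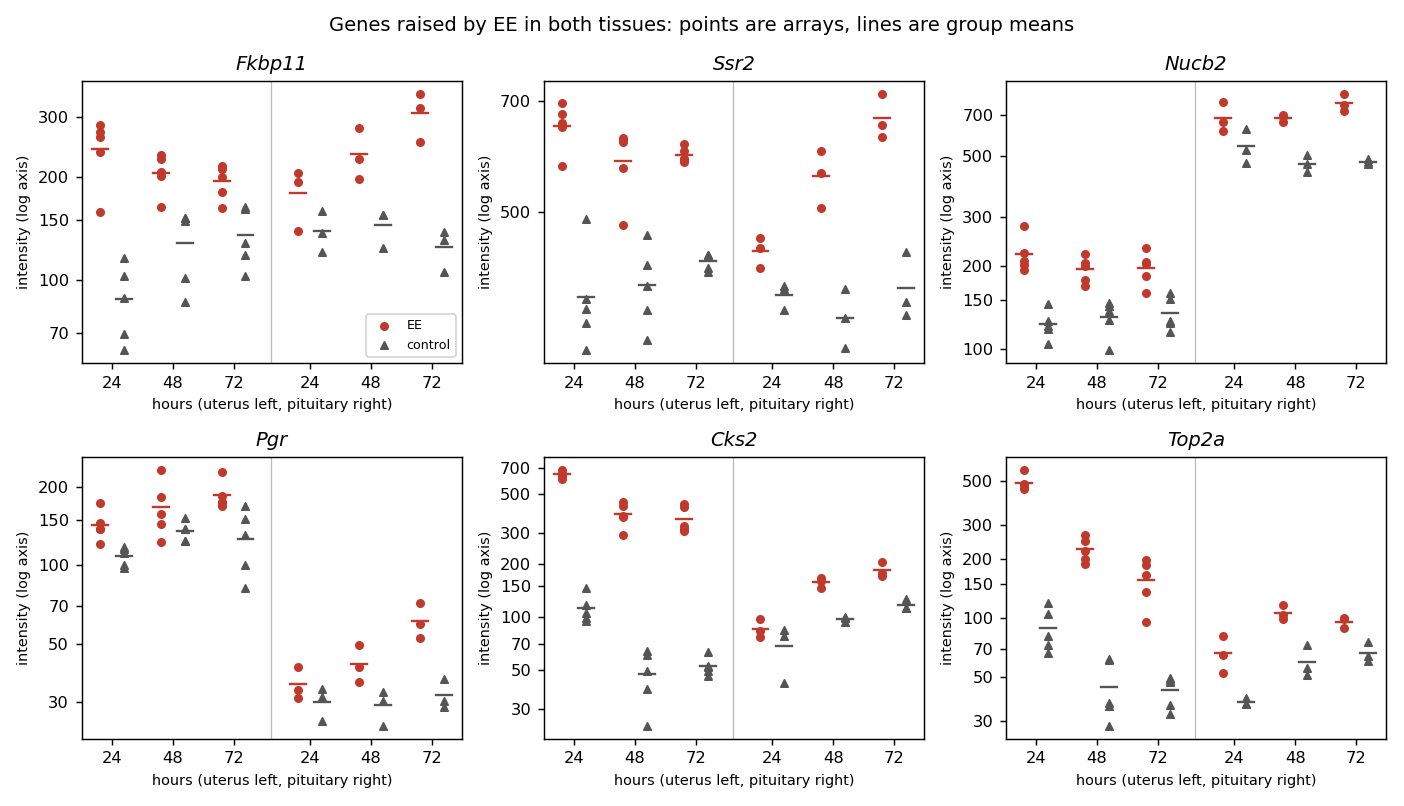
Intensity per array (log axis) of 6 genes that rose with EE in both organs, by time, with uterus left and pituitary right of the grey line, EE as circles left of control as triangles and a line at each group mean. For Fkbp11, Ssr2 and Nucb2 the difference between organs did not pass, while Cks2 and Top2a had larger effects in uterus, where EE means were highest at 24 h.

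Shared falls were fewer. Plagl1, a zinc finger regulator that is imprinted, had the largest shared fall by the smaller of the effects and fell more in pituitary. Its intensities were 47.1, 103 and 190.4 on EE arrays and 84.5, 175 and 206 on control arrays of uterus, and 134, 165 and 242 on EE arrays and 214, 404 and 623 on control arrays of pituitary. In pituitary the groups did not overlap at any single time, while in uterus they overlapped at each. The late mean effect of Plagl1 was -0.46 ± 0.092 (adjusted p = 1.1e-05) in uterus and -0.99 ± 0.11 (adjusted p = 2.3e-06) in pituitary, and the difference of 0.53 ± 0.15 (adjusted p = 0.0018) passed, so the positive sign stands for a smaller fall in uterus. Rgs2, which dampens G protein signals, fell by 0.38 ± 0.063 (adjusted p = 3.1e-07) in uterus and by 0.56 ± 0.093 (adjusted p = 3.0e-04) in pituitary. Errfi1, an inhibitor of the EGF receptor, fell by 0.61 ± 0.074 (adjusted p = 5.0e-11) in uterus and by 0.38 ± 0.082 (adjusted p = 0.0054) in pituitary. Mat2a, which makes the methyl donor S-adenosylmethionine, fell by 0.51 ± 0.046 (adjusted p = 1.0e-15) in uterus and by 0.34 ± 0.053 (adjusted p = 1.7e-04) in pituitary, while its other probe set gave -0.0017 in uterus and -0.16 in pituitary. Net1 fell by 1.02 in uterus and by 0.39 in pituitary, although its pituitary fall was lost in 10 of 18 fits that left out 1 pituitary array. Fam210b, a mitochondrial protein, fell by 0.37 in uterus and by 0.42 in pituitary, lost in 2 of those 18 fits.

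Opposite effects with a rise in uterus were led by Pfkp, Anxa2, Ddah1, Rasd1, Cyp51 and Dsp, ranked by the smaller of the effects among genes brighter than the median in both organs. Anxa2, a membrane-binding annexin, read 1298, 1784 and 2304 on EE arrays and 519, 629 and 743 on control arrays of uterus, and 332, 416 and 579 on EE arrays and 507, 550.1 and 577 on control arrays of pituitary. EE lay above control on every array in uterus, and EE and control overlapped in pituitary only through the 24 h arrays. Its effect was 1.44 ± 0.066 (adjusted p = 6.5e-29) in uterus and -0.34 ± 0.066 (adjusted p = 0.0018) in pituitary, a difference of 1.78 ± 0.10 (adjusted p = 1.2e-26). In pituitary the Anxa2 effect was -0.05 at 24 h, -0.54 at 48 h and -0.44 at 72 h, of which the last 2 passed. Ass1, an enzyme of arginine synthesis, had effects of 1.90 ± 0.094 (adjusted p = 1.3e-25) in uterus and -0.44 ± 0.066 (adjusted p = 1.5e-04) in pituitary. Ddah1, which breaks down an inhibitor of nitric oxide synthesis, had effects of 0.41 ± 0.059 (adjusted p = 6.2e-09) in uterus and -0.33 ± 0.055 (adjusted p = 3.0e-04) in pituitary. Pfkp, a glycolytic kinase, read 319, 379.7 and 472 on EE arrays and 176, 230.3 and 279 on control arrays of uterus, and 336, 393 and 434 on EE arrays and 446, 517 and 573 on control arrays of pituitary, without overlap in either organ. The effect of Pfkp was 0.74 in uterus and -0.40 in pituitary, and the difference was 1.13 ± 0.076 (adjusted p = 4.6e-23). Inhbb, a subunit of activin and inhibin B, had effects of 1.61 ± 0.069 (adjusted p = 2.3e-29) in uterus and -0.25 ± 0.064 (adjusted p = 0.017) in pituitary, and Rasd1, a small G protein, of 0.88 in uterus and -0.29 in pituitary. Krt8, a keratin of simple epithelium, read 746, 1438 and 2128 on EE arrays and 272, 299.95 and 402 on control arrays of uterus, and 150.3, 182 and 193 on EE arrays and 188, 226 and 233 on control arrays of pituitary, with EE above every control array in uterus and ranges that overlapped in pituitary. Dsp, which anchors keratins at cell junctions, had effects of 1.89 in uterus and -0.26 in pituitary. Simple epithelium markers as a whole summed to 6749 to 9689 on EE arrays and 1982 to 2463 on control arrays of uterus at 72 h, and to 1893 to 1955 on EE arrays and 1710 to 1824 on control arrays of pituitary, with 8 rises and 2 falls of 10 in uterus, and 1 rise and 2 falls of 6 in pituitary. Over all genes tested, 31.1% rose and 43.6% fell in uterus, and 3.04% rose and 1.77% fell in pituitary. The sums of simple epithelium markers include Krt8 and Cdh1 themselves, and the part of epithelial content in the uterine rises was not tested.

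Cholesterol synthesis genes had a positive median in uterus and a negative one in pituitary. In uterus all 11 of 11 tested rose, with a median of 0.73, and in pituitary 4 of 15 fell and 0 rose, with a median of -0.16, and 2 fell after quantile normalization. The difference passed for 11 of 11, all more positive in uterus, beside 24.3% of all genes. Over all genes tested, 31.1% rose in uterus and 1.77% fell in pituitary. Fdps, which makes farnesyl diphosphate, had effects of 1.77 ± 0.091 (adjusted p = 1.9e-26) in uterus and -0.16 ± 0.046 (adjusted p = 0.037) in pituitary. Cyp51, which demethylates lanosterol, had effects of 1.39 ± 0.09 (adjusted p = 8.4e-22) in uterus and -0.28 ± 0.083 (adjusted p = 0.044) in pituitary. Both pituitary calls were lost in 12 of the 18 fits without 1 pituitary array. Idi1, an isomerase of the pathway, rose by 1.63 in uterus, while its pituitary value of -0.29 ± 0.09 (adjusted p = 0.067) did not pass.

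Opposite effects with a fall in uterus were led by Tspan2, Ptprs, Gata2, Tfpi, Eif3h and Gas5. Tspan2, a tetraspanin membrane protein, read 183, 224 and 328 on EE arrays and 312, 441 and 577 on control arrays of uterus, and 129.8, 152 and 213 on EE arrays and 67.1, 93.6 and 155 on control arrays of pituitary. EE and control ranges overlapped in both organs when the 3 times were pooled. The effects of Tspan2 were -0.90 ± 0.076 (adjusted p = 1.0e-16) in uterus and 0.65 ± 0.11 (adjusted p = 3.0e-04) in pituitary, with a difference of -1.54 ± 0.13 (adjusted p = 6.7e-18). The other probe set of Tspan2 gave -0.083 in uterus and 0.34 in pituitary, a difference of -0.42, so the size of the uterine fall differed between probe sets. Gata2, a transcription factor of gonadotrophs and thyrotrophs in the pituitary, read 201, 254 and 404 on EE arrays and 432, 528 and 662 on control arrays of uterus, and 161, 194 and 261 on EE arrays and 119, 147 and 202 on control arrays of pituitary. Its effects were -0.96 ± 0.06 (adjusted p = 2.3e-22) in uterus and 0.35 ± 0.065 (adjusted p = 0.0013) in pituitary. Tfpi, an inhibitor of blood clotting, had effects of -0.59 ± 0.043 (adjusted p = 3.8e-19) in uterus and 0.33 ± 0.061 (adjusted p = 0.0012) in pituitary. Ptprs, a receptor phosphatase, had effects of -0.58 in uterus and 0.39 in pituitary. Eif3h, a subunit of a translation initiation factor, read 531, 608 and 699 on EE arrays and 659, 826 and 928 on control arrays of uterus, and 610.3, 679 and 760.0 on EE arrays and 470.4, 551 and 581 on control arrays of pituitary, and its effects were -0.39 ± 0.039 (adjusted p = 8.3e-14) in uterus and 0.31 ± 0.049 (adjusted p = 2.3e-04) in pituitary. In pituitary the EE arrays of Eif3h all lay above the controls. Gas5, a noncoding RNA that hosts small nucleolar RNAs, had effects of -0.47 in uterus and 0.30 in pituitary, and Lamb2, a laminin of basement membranes, of -0.53 in uterus and 0.37 in pituitary. Fst, follistatin, which binds activin, had effects of -1.25 ± 0.059 (adjusted p = 2.9e-28) in uterus and 0.26 ± 0.073 (adjusted p = 0.032) in pituitary, where it was near the offset and lost in 12 of the 18 fits. Genes of cytosolic ribosomal proteins, a list also drawn up after values were seen, rose for 18 and fell for 0 of 40 in pituitary, and rose for 4 and fell for 14 of 41 in uterus. Over all genes tested, 3.04% rose in pituitary, and 31.1% rose and 43.6% fell in uterus. As deposited, falls in uterus were thus no more frequent on this list than over all genes. After centring the uterine count of the list became 8 rises and 5 falls, while the pituitary count stayed at 18 rises. The list's uterine median was -0.055 as deposited and 0.034 after centring, beside -0.052 and 0.036 over all genes. After quantile normalization the list had 8 rises in pituitary, and 2 rises and 26 falls of 41 in uterus. Over all genes 2848 of 6674 then fell in uterus, so falls were more frequent on the list under that scaling. The uterine medians were then -0.13 for the list and -0.048 over all genes.

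**Figure D3:**
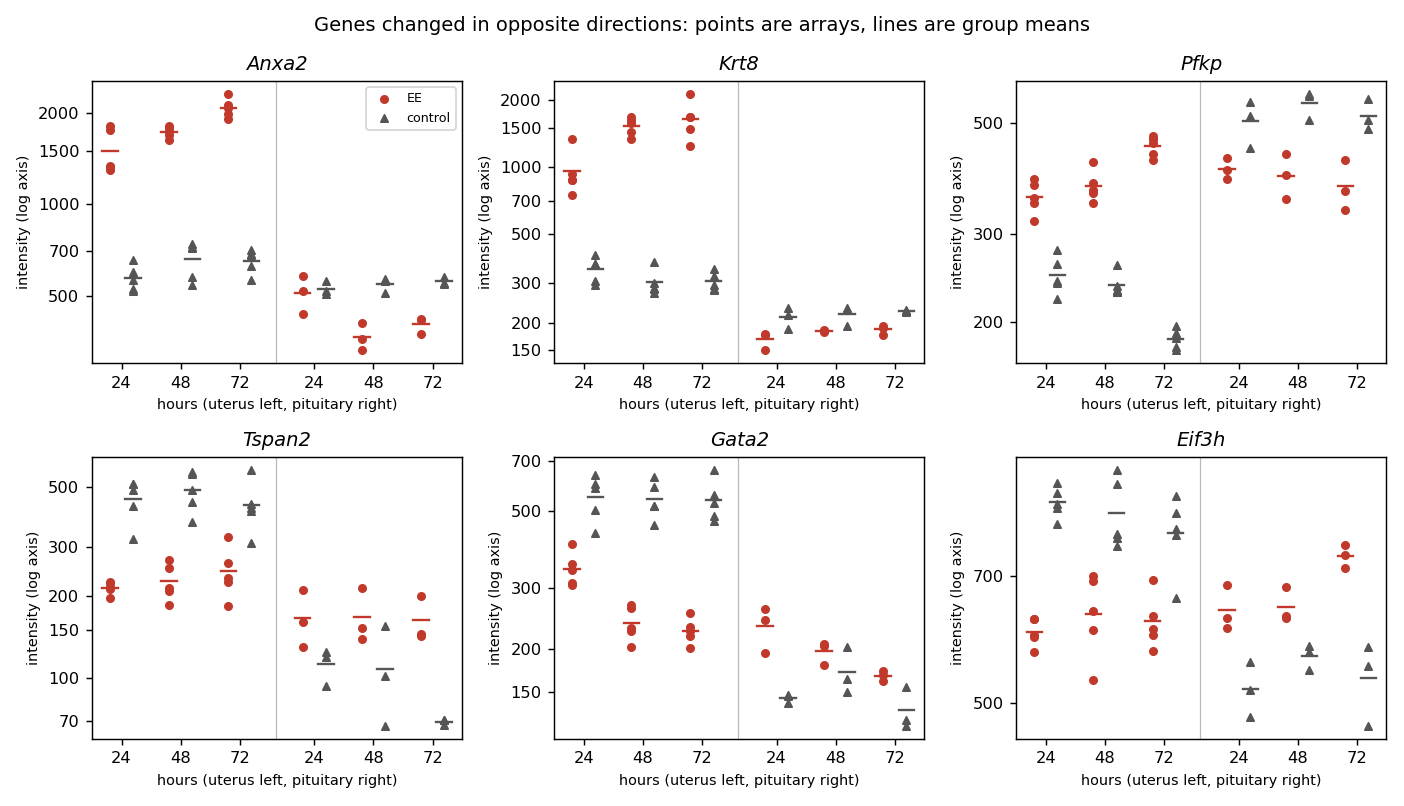
Intensity per array (log axis) of 6 genes that EE moved in opposite directions, by time, with uterus left and pituitary right of the grey line, EE as circles left of control as triangles and a line at each group mean. Anxa2, Krt8 and Pfkp lie above control in uterus and mostly below it in pituitary, and Tspan2, Gata2 and Eif3h do the reverse.

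Rises in uterus alone were led by Krt10, Ccl11, Spon1, Mx1, Prxl2a and Lgals9. Ccl11, the eosinophil attractant eotaxin, read 97.2, 601 and 1586 on EE arrays and 24.3, 36.5 and 52.8 on control arrays of uterus, and 24.2, 30.7 and 39.6 on EE arrays and 22.6, 30.9 and 42.6 on control arrays of pituitary, with no overlap in uterus. Its effect was 2.85 ± 0.10 (adjusted p = 4.8e-34) in uterus and -0.053 ± 0.072 (adjusted p = 0.81) in pituitary, where the signal lay near the offset. Spon1, a matrix protein, read 365, 469 and 549.9 on EE arrays and 58, 79.8 and 104 on control arrays of uterus, and 65, 83 and 109 on EE arrays and 55, 74 and 109 on control arrays of pituitary, an effect of 2.15 ± 0.06 (adjusted p = 7.6e-40) in uterus and of 0.085 ± 0.08 (adjusted p = 0.69) in pituitary. Krt10, a keratin of stratified epithelium, had the largest effect of the rises in uterus alone, 2.95 ± 0.30 (adjusted p = 2.2e-13), and ran from 24.1 to 1644 on EE arrays. Markers of stratified epithelium summed to 4975 to 14257 on EE arrays and 154 to 1655 on control arrays of uterus at 72 h. At 48 h the ranges overlapped, at 1054 to 12356 on EE arrays and 620 to 1915 on control arrays. Krt10 is itself among these markers, and their part in its rise was not tested. Genes induced by interferon rose for 15 and fell for 1 of 18 in uterus, with a median of 0.90. In pituitary 0 of 15 rose and 0 fell, with a median of -0.02. The difference passed as more positive in uterus for 14 of 15, beside 24.3% of all genes. Over all genes tested, 31.1% rose in uterus and 3.04% in pituitary, so a short list would give few pituitary rises in any case. Mx1, an antiviral GTPase, rose by 1.75 ± 0.073 (adjusted p = 6.5e-31) in uterus and had -0.02 ± 0.085 (adjusted p = 0.96) in pituitary, where it was below the offset. Irf7, a transcription factor of the interferon response, rose by 1.44 ± 0.061 (adjusted p = 2.5e-30) in uterus and had -0.11 ± 0.09 (adjusted p = 0.64) in pituitary. Macrophage markers rose too, 8 of 8 in uterus and 0 of 8 in pituitary, and summed to 4204 to 6467 on EE arrays and 1269 to 1620 on control arrays of uterus at 72 h. In pituitary the sums were 808 to 1023 on EE arrays and 860 to 914 on control arrays. Their part in the interferon and antigen presentation genes was not tested. The interferon-stimulated response element, read as GAAA and GAAAC with 2 bases of any kind between them on either strand, was found in 5 of 12 promoters of the interferon list (41.7%), against 0.863% of all promoters. Of promoters of genes tested for the late mean difference, 0.828% held it. Promoters of Irf7 (chr1:205799974-205800273, minus strand) and Bst2 (chr16:18254918-18255217, minus strand), which rose by 1.44 and 0.86 in uterus, are shown with the element in capitals.
Irf7: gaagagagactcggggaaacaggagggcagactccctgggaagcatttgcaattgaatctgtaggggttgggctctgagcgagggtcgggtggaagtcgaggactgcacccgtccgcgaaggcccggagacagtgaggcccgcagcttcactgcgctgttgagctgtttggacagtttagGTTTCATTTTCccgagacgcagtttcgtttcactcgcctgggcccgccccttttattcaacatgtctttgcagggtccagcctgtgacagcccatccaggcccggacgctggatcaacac
Bst2: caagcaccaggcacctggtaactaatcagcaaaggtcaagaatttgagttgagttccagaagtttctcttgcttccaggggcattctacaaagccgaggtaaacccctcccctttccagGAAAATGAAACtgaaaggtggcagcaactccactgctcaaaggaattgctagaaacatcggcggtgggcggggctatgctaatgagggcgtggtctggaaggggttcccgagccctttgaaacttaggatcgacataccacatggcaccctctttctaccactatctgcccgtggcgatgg

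Further uterine rises came from energy metabolism. Respiratory chain genes rose for 17 of 19 in uterus and for 1 of 19 in pituitary, with medians of 0.23 and 0.012 for uterus and pituitary. For the late mean, quantile normalization within each tissue gave 12 rises and 2 falls in uterus. At 72 h alone 7 of 19 rose and 0 fell in uterus as deposited, and 4 rose and 5 fell after that normalization. Over all genes tested in uterus at 72 h, 23.4% rose and 36.8% fell as deposited. After that normalization 1443 of 6823 rose and 2499 fell. Glycolysis genes rose for 10 and fell for 1 of 13 in uterus, and rose for 0 and fell for 1 of 13 in pituitary, where 31.1% of all genes rose in uterus and 3.04% in pituitary. Ldha, lactate dehydrogenase A, read 822, 1282 and 1943 on EE arrays and 433, 492 and 635 on control arrays of uterus, and 286, 382 and 436 on EE arrays and 322, 351 and 418 on control arrays of pituitary. EE lay above control throughout in uterus, with an effect of 1.24 ± 0.051 (adjusted p = 3.0e-31), and the pituitary effect was 0.032 ± 0.056 (adjusted p = 0.86).

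Falls in uterus alone were led by Enpp2, Cpxm1, Igfbp3, Sult1a1, Tgfbi and Scn7a. Igfbp3, which binds insulin-like growth factors, read 119, 147 and 237 on EE arrays and 590.3, 782 and 917 on control arrays of uterus, and 45, 48.4 and 59.3 on EE arrays and 39.7, 54.5 and 69.6 on control arrays of pituitary, without overlap in uterus. Its effect was -2.12 ± 0.072 (adjusted p = 2.5e-35) in uterus and -0.092 ± 0.072 (adjusted p = 0.61) in pituitary. Enpp2, which makes lysophosphatidic acid, read 35.6, 55.7 and 94.4 on EE arrays and 265, 372 and 477 on control arrays of uterus, and 49.5, 55.6 and 65.1 on EE arrays and 49.6, 57.6 and 70.7 on control arrays of pituitary, and its effect was -2.17 ± 0.067 (adjusted p = 2.2e-37) in uterus. Cpxm1, a carboxypeptidase-like matrix protein, had an effect of -2.15 ± 0.095 (adjusted p = 7.9e-30) in uterus, against -0.032 ± 0.045 (adjusted p = 0.82) in pituitary. Igf1r, the receptor of Igf1, fell by 1.11 ± 0.061 (adjusted p = 4.4e-25) in uterus while its ligand rose, and had 0.011 ± 0.052 (adjusted p = 0.96) in pituitary. Angiogenesis genes fell for 12 of 14 in uterus with 0 rises, and for 1 of 10 in pituitary, with a median of -0.47 in uterus. Wnt signalling genes fell for 10 and rose for 3 of 16 in uterus, and 0 of 10 fell in pituitary. Of all genes tested, 43.6% fell in uterus and 1.77% in pituitary. Adipocyte markers summed to 229.9 to 420.2 on EE arrays and 495 to 1225 on control arrays of uterus at 72 h. Red blood cell markers summed to 221 to 497 on EE arrays and 562 to 899.8 on control arrays of uterus at 24 h, and to 626 to 1336 on EE arrays and 1033 to 2217 on control arrays at 72 h. The part of these cells in the uterine falls was not tested. Cpe, which trims prohormones in secretory granules, read 256, 329 and 452 on EE arrays and 685, 984 and 1247 on control arrays of uterus, and 2887, 3058 and 3273 on EE arrays and 3034, 3190.2 and 3509 on control arrays of pituitary. It fell by 1.42 ± 0.064 (adjusted p = 1.9e-29) in uterus and had -0.08 ± 0.046 (adjusted p = 0.43) in pituitary, where it was brighter. In the single-organ classes the other organ often gave a signal: pituitary intensity lay above the pituitary median for 862 of the 1274 uterine rises and for 1191 of the 1925 uterine falls.

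**Figure D4:**
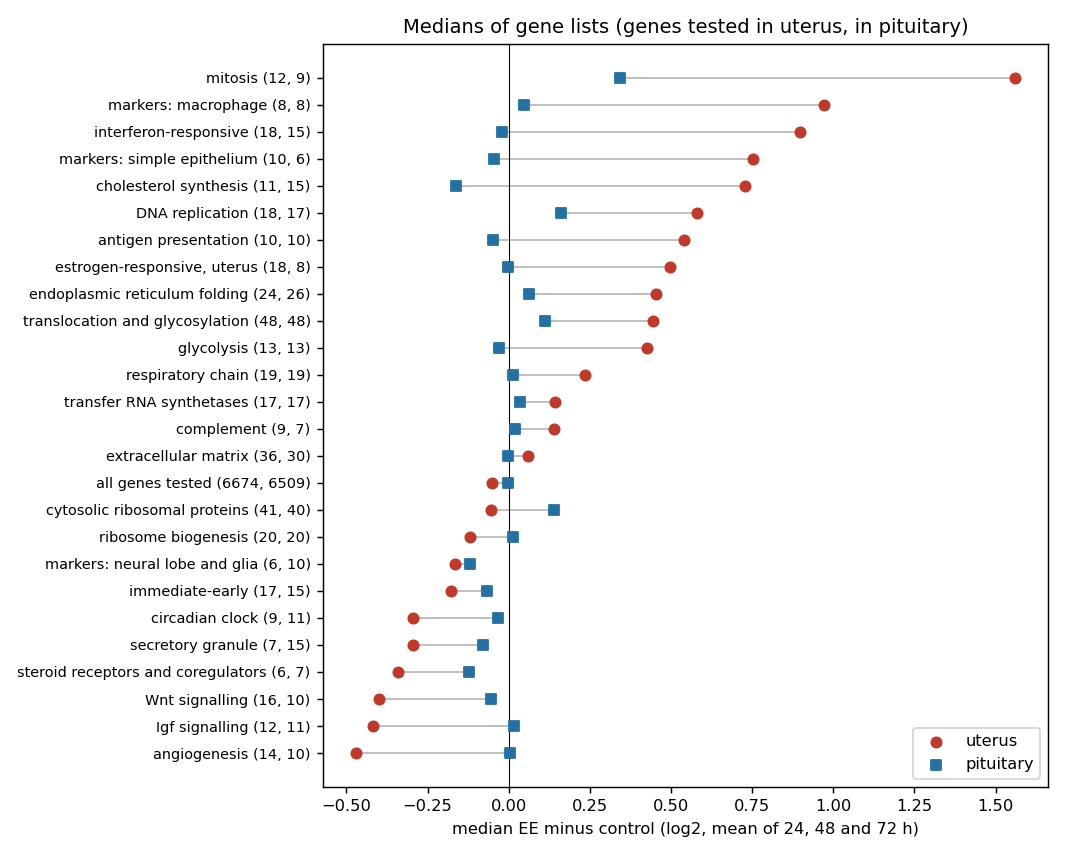
Median late mean EE effect (log2) of gene lists with at least 5 members tested in both organs, with uterus as red circles and pituitary as blue squares and the numbers tested in uterus and in pituitary beside each name. Mitosis has the highest median in both organs, cholesterol synthesis lies above 0 in uterus and below it in pituitary, and angiogenesis has the lowest median in uterus.

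Effects in pituitary alone were few. The uterine level lay below 60.9, which is 2 times the offset, for 8 of the 10 falls and 9 of the 30 rises. Fshb, the beta chain of FSH, read 1006, 627 and 874 on EE arrays of pituitary at 24 h, against 2324, 2039 and 2784 on controls. It read 936, 839 and 564 on EE arrays at 48 h, against 2985, 1712 and 1776 on controls, and 282, 462 and 379 on EE arrays at 72 h, against 1124, 490.4 and 465 on controls. EE and control did not overlap at any of the 3 times, and both were lowest at 72 h. The fall of Fshb, on 3 arrays per group, passed the adjusted test at no single time. The late mean effect of Fshb was -1.22 ± 0.22 (adjusted p = 7.5e-04) in pituitary and -0.027 ± 0.044 (adjusted p = 0.59) in uterus, where it lay below or near the offset. Gnrhr, the receptor by which the hypothalamus drives gonadotrophs, read 304, 292 and 332 on EE arrays of pituitary at 72 h, against 1019, 969 and 939 on controls, and was blank on all 30 late uterus arrays. Gnrhr effects in pituitary were -0.86 ± 0.17 (adjusted p = 0.036) at 24 h, -1.22 ± 0.17 (adjusted p = 9.2e-04) at 48 h and -1.57 ± 0.17 (adjusted p = 6.2e-06) at 72 h. Lhb, the beta chain of LH, fell by 0.36 ± 0.10 (adjusted p = 0.028) in pituitary, lost in 7 of 18 fits that left out 1 array. Of 5 gonadotroph markers tested, 3 fell and 0 rose, beside 1.77% of all genes that fell in pituitary. Cga, the alpha chain shared by LH, FSH and TSH, had -0.073 ± 0.062 (adjusted p = 0.65). Gonadotroph markers summed to 7807 to 8918 on EE arrays and 10569 to 10880 on control arrays of pituitary at 72 h. This sum includes Fshb, Gnrhr, Lhb and Cga, so it is no separate measure of gonadotroph content. Neural lobe and glia markers summed to 1500.0 to 1781 on EE arrays and 1838 to 2262 on control arrays of pituitary at 72 h. Their ranges overlapped at 24 h, at 1755 to 2479 on EE arrays and 2262 to 2457 on control arrays. They also overlapped at 48 h, at 1824 to 2200 on EE arrays and 2104 to 2567 on control arrays. The part of tissue make-up in the pituitary effects was not tested. Prl, prolactin, had 0.12 ± 0.084 (adjusted p = 0.56) and Gh1, growth hormone, -0.051 ± 0.064 (adjusted p = 0.8), while Prlr, the prolactin receptor, fell by 0.32, lost in 8 of the 18 fits.

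The leading pituitary rises that did not pass in uterus were Fgf13, Nudt7, Vkorc1, Rplp0, Ndufa6 and Rps15 by size among brighter genes. Nudt7, a peroxisomal hydrolase of coenzyme A, read 48, 59.9 and 72.1 on EE arrays and 44.4, 64.1 and 71.3 on control arrays of uterus, and 145, 149.6 and 205 on EE arrays and 93.4, 107 and 125 on control arrays of pituitary. EE lay above control on every array in pituitary and the groups overlapped in uterus. Its effect was 0.46 ± 0.055 (adjusted p = 6.4e-06) in pituitary and -0.043 ± 0.058 (adjusted p = 0.51) in uterus, a difference of -0.50 ± 0.089 (adjusted p = 1.1e-06). Rplp0, a protein of the large ribosomal subunit, had an effect of 0.36 ± 0.047 (adjusted p = 1.6e-05) in pituitary and 2.1e-05 ± 0.043 in uterus, with a difference of -0.36 ± 0.067 (adjusted p = 2.2e-06). Rps15, a protein of the small ribosomal subunit, had an effect of 0.28 ± 0.061 (adjusted p = 0.0052) in pituitary and -0.018 ± 0.046 (adjusted p = 0.74) in uterus. Fgf13, an intracellular regulator of sodium channels, had an effect of 0.52 ± 0.09 (adjusted p = 5.5e-04) in pituitary and 0.12 ± 0.068 (adjusted p = 0.11) in uterus. Vkorc1, which recycles vitamin K, had 0.39 in pituitary and 0.10 in uterus, and Ndufa6, of respiratory complex I, 0.33 and 0.10 in the same 2 organs. After centring, Fgf13, Vkorc1 and Ndufa6 counted as shared rises, and the falls of Cmbl, Eola2, Prlr and Vsnl1 as opposite to a uterine rise. Of the 30 rises and 10 falls in pituitary alone, 10 and 5 kept their class after centring, and 16 and 6 after quantile normalization. After quantile normalization Rplp0 and Rps15 fell in uterus, at -0.081 (adjusted p = 0.03) and -0.20 (adjusted p = 2.6e-06), and counted as opposite. The pituitary falls of Eola2 and Vsnl1 were lost in 11 and 12 of the 18 fits without 1 pituitary array, and that of Vsnl1 also after quantile normalization (adjusted p = 0.065).

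Fos, an immediate-early transcription factor, was moved in opposite directions at 72 h. It read 35.5, 65.9, 91.1, 33.3 and 112 on EE arrays of uterus, against 20.5, 18.6, 12.3, 17.6 and 11.8 on controls, and 88.3, 29.3 and 30.9 on EE arrays of pituitary, against 206, 271 and 421 on controls. EE and control did not overlap in either organ, with EE higher in uterus and lower in pituitary. The effect was 1.003 ± 0.19 (adjusted p = 9.3e-06) in uterus and -2.07 ± 0.38 (adjusted p = 0.0025) in pituitary, a difference of 3.07 ± 0.39 (adjusted p = 9.0e-10). At 24 and 48 h the pituitary effects were 0.94 ± 0.38 (adjusted p = 0.73) and 0.53 ± 0.38 (adjusted p = 0.79), and control arrays of pituitary ran only from 15.9 to 57.7 there. The 3 control arrays at 72 h were thus the highest control values of Fos in pituitary, while EE arrays reached 216 at 24 h. Nr4a1, another immediate-early gene, read 246, 184 and 218 on EE arrays of pituitary at 72 h, against 760.2, 272 and 794 on controls, an effect of -1.25 ± 0.39 (adjusted p = 0.088). Of the immediate-early genes tested at 72 h, a list drawn up after values were seen, 5 rose and 4 fell of 17 in uterus, and 0 rose and 5 fell of 16 in pituitary. Of all genes tested at 72 h, 23.4% rose and 36.8% fell in uterus, and 1.76% rose and 0.963% fell in pituitary. After quantile normalization the immediate-early falls numbered 2 in uterus and 3 in pituitary.

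**Figure D5:**
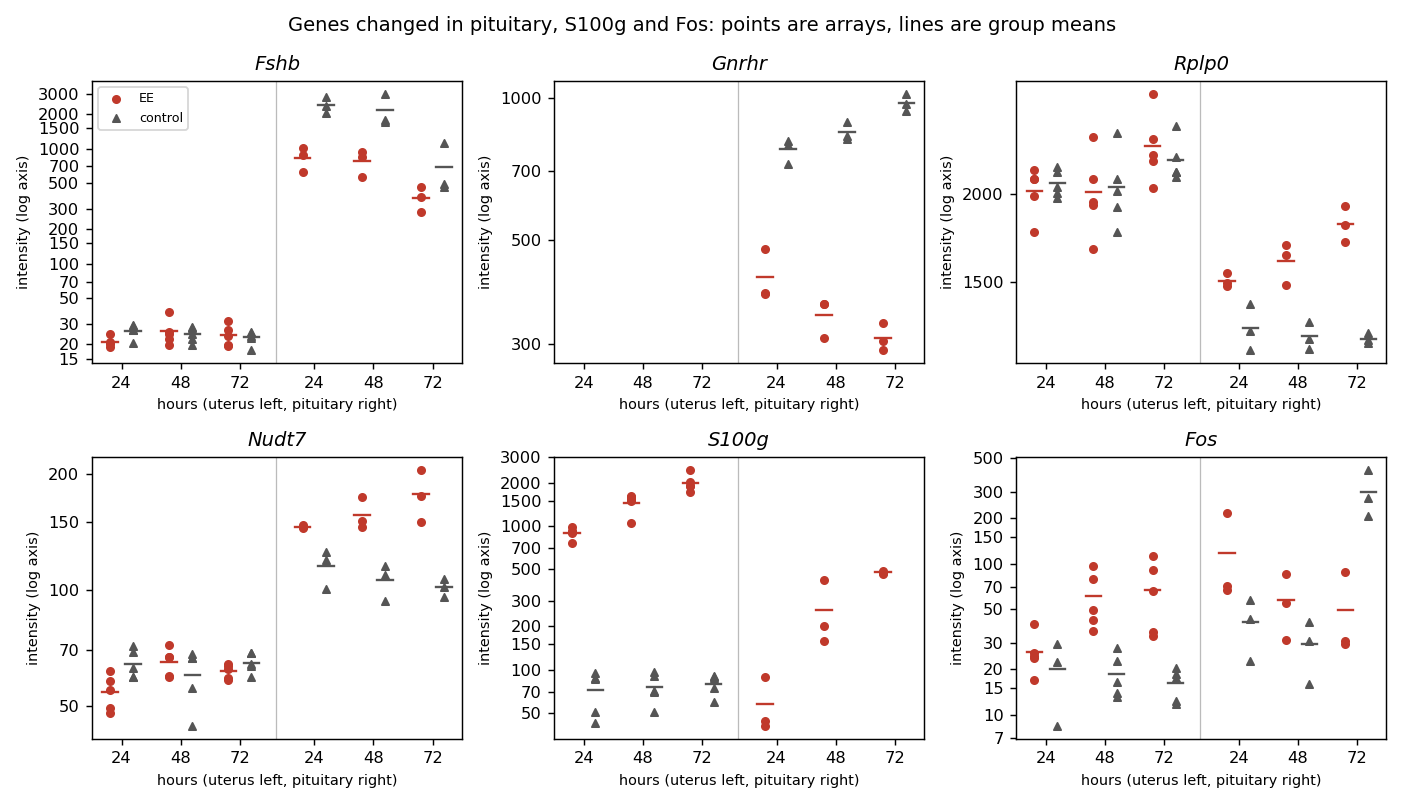
Intensity per array (log axis) of Fshb, Gnrhr, Rplp0, Nudt7, S100g and Fos by time, with uterus left and pituitary right of the grey line, EE as circles left of control as triangles and a line at each group mean. Gnrhr has no values in uterus and S100g none on control arrays of pituitary, and control arrays of pituitary are highest for Fos at 72 h.

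Some effects could not be set against the other organ because its arrays were blank. Of 209 genes tested in uterus and blank on all 18 pituitary arrays, 69 rose and 85 fell, and of 121 tested in pituitary and blank on all 30 uterus arrays, 5 rose and 9 fell. Kap, an estrogen- and androgen-regulated kidney protein gene, read 1731, 2121 and 3450.1 on EE arrays and 58.8, 131 and 248 on the control arrays of uterus with a value, an effect of 3.82 ± 0.14 (adjusted p = 4.9e-30). Sprr1a, of the envelope of stratified epithelium, rose by 3.05 ± 0.26 (adjusted p = 2.0e-16) in uterus. Olfm3, an olfactomedin, rose by 0.79 ± 0.071 (adjusted p = 5.5e-08) in pituitary, from values of 46.2, 86.2 and 158 on EE arrays and 30.3, 37.4 and 50.6 on controls. Chga, chromogranin A of hormone granules, fell by 0.56 ± 0.10 (adjusted p = 0.001) in pituitary. A blank in the other organ says only that no value was given there.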

How the data were processed

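Total RNA of whole uterus and pituitary was isolated with RNeasy Mini kits and hybridised to Affymetrix RAE230A arrays, per the labels' protocols. The authors deposited 1 table of linear intensities for 15923 probe sets on 100 arrays; how intensities were summarised, scaled and left blank is not given in the sources used here. Blank cells made up 37.2% of the table. Probe sets were named through GEO's platform annotation (12783 with 1 gene symbol, 312 with several, 2771 with none and 57 array controls), and 12750 symbols were updated through RefSeq. Of the probe sets of a gene, that with the highest mean was kept. Precision was limited by 5 arrays per uterus group and 3 per pituitary group.

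Deposited intensities were taken to log2 after adding 30.4, and a group mean was fitted for each of the 24 groups of tissue, treatment and time over all 100 arrays. Variances were moderated with limma 3.58.1 in R 4.3.3, within a tissue for its own effects and over both tissues for differences. A gene was tested with at least 3 values in each uterus group and 2 in each pituitary group. Tests were two-sided with Benjamini-Hochberg adjustment, and the procedure was tested on simulated data. Alternatives changed the offset, scaling, blanks, low-value filter, arrays in the fit, variance model, probe set, replicate block and each late array. The probe set kept when blanks are ignored, and the rescaled list counts, were chosen after seeing the data.

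Named genes were the 6 leading shared, opposite and single-organ changes each way among genes brighter than the tissue median, the 3 most positive and negative differences per time, up to 3 per list, and classical targets. Only some are described. Bst2, Cga, Chga, Dnajc3, Gnrhr, Hspa5, Kap, Olfm3, S100g, Sprr1a, Ssr4 and Top2a were added after their values were seen. Members and lists were chosen with earlier results of these data known.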

Additional observations from a re-analysis of the deposited data

Results flagged for a closer look

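The EE effect differed between uterus and pituitary for 2528 genes at 24 h, 2277 at 48 h, 2314 at 72 h and 3485 for the late mean, by limma's test of the difference itself. It ran in opposite directions, passing in both organs, for 31 genes that rose in uterus and fell in pituitary and for 42 that fell in uterus and rose in pituitary. The difference of Fos at 72 h was 3.071 on the log2 scale, and that of Plagl1 over the 3 times was 0.5264, where the fall was larger in pituitary.

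Dixon's gap test was run on 52 groups of 5 uterus arrays for 9 genes, and 4 groups held an array far from the others, where chance alone would mark about 5% of groups. Pgr read 228.8 on the EE array numbered 82 at 72 h, and S100g read 1047 on the EE array numbered 71 at 48 h. Krt8 read 375.4 on the control array numbered 62 at 48 h, and Top2a read 571.9 on the EE array numbered 43 at 24 h.

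S100g lay outside the tests in pituitary because of blanks, yet had a value on 9 of 9 late EE arrays and on 0 of 9 control arrays there.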

How the results depend on the processing

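With all arrays kept, no count of passing genes moved by over 1.5 times, nor did the late mean counts of shared, opposite, uterus-alone and pituitary-alone genes. Within these, genes that fell in uterus and rose in pituitary numbered 26 after centring, against 42 as deposited, and falls in pituitary alone 6 after quantile normalization, against 10. At 72 h opposite genes numbered 23 after quantile normalization, against 35. With 1 late array left out, the tissue difference passed for 2184 to 2522 genes at 24 h, 1920 to 2260 at 48 h, 2019 to 2355 at 72 h and 3353 to 3485 for the late mean. The late mean effect passed for 4855 to 4985 genes in uterus and 224 to 313 in pituitary. Shared genes numbered 103 to 140, opposite ones 47 to 73, those changed in uterus alone 3097 to 3201 and in pituitary alone 25 to 47. The late mean difference of 138 named genes, of which 123 passed, was recomputed as 1623 values under other settings: 1600 kept their call and direction, 17 lost the call, 3 gained it and 3 reversed. The reversals were Tpm1 after quantile normalization at -0.015 (adjusted p = 0.89), and, with the mean of all probe sets, Canx at 0.13 (adjusted p = 0.093) and Pam at 0.64 (adjusted p = 0.18). For Canx the probe set kept gave -0.32 in uterus and its others gave 0.57 and 0.27, so the probe sets disagreed in direction. Why they disagreed, and the causes of the other reversals, were not tested. Centring raised the share of differences more positive in uterus to 56.8%, against 40.8% as deposited and 38.3% after quantile normalization. Rises and falls in uterus alone numbered 1774 and 1382 after centring, against 1274 and 1925 as deposited.

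With the number in the title as a replicate block, the tissue difference passed for 2573 genes at 24 h, 2314 at 48 h, 2351 at 72 h and 3512 for the late mean, and no count moved by over 1.5 times. The 16 uterus and pituitary pairs that shared a number had correlations of their deviations of -0.05 to 0.16, with 4 above 0.1. In 9 of the 16 the shared number gave the best correlation, so whether the numbers pair the arrays was left unsettled.

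Pituitary effects rest on 3 arrays per group and the uterine ones on 5, and intensities near or below the offset of 30.4 limit folds there.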
